A study of Mus musculus with 6 samples.

Results

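AGO2 clusters within long non-coding RNA (lncRNA) genes were examined in chimeric eCLIP data from mouse brain at postnatal day 0 (P0). A cluster, here a short stretch of the genome where AGO2-bound reads pile up, was included when it lay wholly inside an mm10 RefSeq gene of biotype lncRNA, on the strand of that gene, and overlapped no protein-coding or miRNA gene on that strand. *Meg3*, *Rian*, *Mirg*, *Malat1*, *Neat1*, *Miat*, *Snhg11* and *Oip5os1* were left out. This rule gave 7878 of the 359172 AGO2 clusters in WT (2.19%), 13543 of 616014 in *Mov10* Deletion replicate 1 (DEL1, 2.20%) and 13542 of 616005 in replicate 2 (DEL2, 2.20%). They lay in 979 genes in WT and in 1230 genes in each *Mov10* Deletion library, or in 1466 lncRNA genes in all. Clusters of chimeric reads, which join a miRNA to the RNA bound by the same AGO2, were placed in genes in the same way, which gave 232 target clusters in 99 lncRNA genes in WT, 404 in 184 genes in DEL1 and 181 in 111 genes in DEL2.

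The study asked how loss of the RNA helicase MOV10 changes AGO2 binding in the brain. The samples were P0 whole brains on the C57Bl/6J strain, 1 WT and 2 *Mov10* Deletion, each IP with an input of its own whose reads enter only through the deposited IP over input values. *Mov10* Deletion mice carry *Mov10* with exons 6 and 7 floxed and the *Emx1*-Cre driver, combined with a heterozygous *Mov10* mutation. The Cre driver acts in excitatory neurons of the hippocampus and neocortex, whereas the tissue was the whole brain, and the study's methods describe MOV10 as reduced and not absent. Whether the brains came from separate litters was not stated in the sources used here. With 1 WT library no test between the genotypes was possible, and none was run across genes.

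AGO2 is guided to RNAs by a miRNA, which pairs mainly through its seed (bases 2 to 8) and most often to the 3’UTRs of mRNAs. Long non-coding RNAs are longer transcripts without a coding sequence. Some stay in the nucleus, where they act on chromatin, some are hosts from which miRNAs or snoRNAs are cut, and those that reach the cytoplasm can meet AGO2 as an mRNA does.

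The sequences that the results turn on belong to a few miRNA families, to *H19* and to *Rab10os*. *H19*, an imprinted lncRNA and the host of *Mir675*, ranked first among the lncRNA genes that were enriched in every library, by the lowest of its 3 best values. Its target clusters were assigned mostly to 3 miRNA families whose seeds overlap with each other. Mature miRNAs are from RefSeq (GRCm38.p6), with the seed in capitals.
miR-130a-3p: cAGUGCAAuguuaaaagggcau
miR-301a-3p: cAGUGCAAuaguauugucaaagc
miR-130b-3p: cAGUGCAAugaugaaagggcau
miR-19b-3p: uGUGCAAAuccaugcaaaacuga
miR-148a-3p: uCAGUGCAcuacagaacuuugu
miR-152-3p: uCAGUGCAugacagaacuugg
miR-199a-5p: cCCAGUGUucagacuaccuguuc
miR-130a-3p, miR-130b-3p and miR-301a-3p share 1 seed, miR-148a-3p and miR-152-3p share another, and miR-19b-3p has the third. *H19* transcripts of GENCODE vM39 hold matches to all 3 seeds within 1 stretch of 30 nt. It is shown here from H19-201 (GRCm39 chr7:142129541-142129570, minus strand, 274 to 303 nt before the 3′ end of this transcript), with the matches in capitals.
H19: gaaTTTGCACTaagtcgaTTGCACTGgttt
The letters searched were TTGCACT for miR-130/301, TTTGCAC for miR-19 and TGCACTG for miR-148/152, in the sense of the transcript, and these motifs overlap. The stretch was found in 19 of 21 annotated *H19* transcripts. TTGCACT occurs there at 2 places. ACACTGG, the match to the seed of miR-199a-5p, was in none of the 21. The stretch does hold CACTGG, the match to this seed without base 8 of the miRNA. As a background, the same distance from the 3′ end (258 to 327 nt) was read in 146473 lncRNA transcripts of at least that length. TTGCACT was in 0.344% of them, TTTGCAC in 0.363% and TGCACTG in 0.663%.

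*Rab10os*, named as a transcript from the opposite strand of *Rab10*, had target clusters assigned to miR-16-5p, miR-15b-5p and miR-195a-5p, which share a seed, and to miR-103-3p, whose seed is shifted by 1 base.
miR-16-5p: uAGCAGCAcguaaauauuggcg
miR-15b-5p: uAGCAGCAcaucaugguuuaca
miR-195a-5p: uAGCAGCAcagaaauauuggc
miR-103-3p: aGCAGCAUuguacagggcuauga
TGCTGCT, the match to the seed of miR-16-5p, was searched in the sense of 115 GENCODE vM39 transcripts of *Rab10os*. It was in 17 of them, and 9 held 21 matches each, counting overlapping ones. In Rab10os-203 all 21 lay in 1 exon of 3382 nt (GRCm39 chr12:3288029-3291410, plus strand), over 1817 nt. Among 400 lncRNA transcripts at least as long as Rab10os-203 (4098 nt), itself included, 3 (0.75%) held as many, and the median was 1 match. Rab10os-203 was picked as 1 of those with the most matches, and other *Rab10os* transcripts were not removed from this background. Examples of windows of 30 nt with a match are shown with the matches in capitals.
Rab10os window at chr12:3289048-3289077: aggaagtgatgTGCTGCTGCTctacatgtg
Rab10os window at chr12:3289363-3289392: ctgttgtctgaTGCTGCTtcacatgtgttc
Rab10os window at chr12:3289498-3289527: cttgtgtatgaTGCTGCTgcaaatgtgtac
Cluster coordinates below are those of mm10, counted from 1. They were not converted to the build of these transcripts, and a match is a description of sequence, not a measured binding site.

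Every AGO2 cluster has a deposited log2 value of IP over input with a −log10 p-value that stops at 400. Enriched clusters are those in which both values reached 3 or more. In WT, 117 lncRNA clusters were enriched (1.49%, exact 95% interval 1.23 to 1.78), against 2.11% of all WT clusters. DEL1 had 648 (4.78%, 4.43 to 5.16, against 5.18% of all) and DEL2 had 328 (2.42%, 2.17 to 2.70, against 3.1% of all). These Clopper-Pearson intervals describe counting error alone. In each library the lncRNA share was below that of clusters in protein-coding genes, which was 2.06% in WT, 5.14% in DEL1 and 3.08% in DEL2, and the lncRNA interval did not include it in WT and in DEL2 but did in DEL1. The lncRNA shares of the *Mov10* Deletion replicates lay further apart than the shares of lncRNA and protein-coding clusters did within any library.

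**Figure D1:**
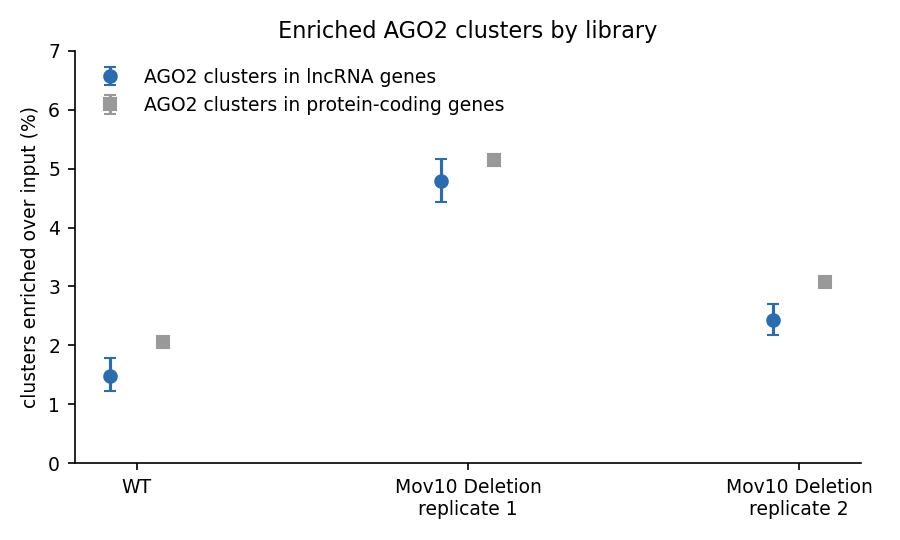
Share of AGO2 clusters enriched over input (y axis, %) in each of the 3 libraries, for clusters in lncRNA genes (circles) and in protein-coding genes (squares); bars are exact 95% intervals. lncRNA clusters are at 1.49%, 4.78% and 2.42%, each below the protein-coding share of the same library.

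The threshold asked for different numbers of reads in each library. Total depth is unknown, but the reads behind single clusters could be inferred from the deposited ratio and p-value, where an input of 1 read stands for 0 or 1. At 1 IP read over 1 input read the deposited log2 was −0.24 in WT, 0.80 in DEL1 and 1.25 in DEL2. Equal reads thus gave a higher log2 in *Mov10* Deletion, which bears on the log2 values set side by side below. The median number of IP reads behind an enriched lncRNA cluster was 35.5 in WT, 13 in DEL1 and 12 in DEL2. Over 1 input read, the fewest IP reads of an enriched lncRNA cluster were 17 in WT, 9 in DEL1 and 8 in DEL2. When at least 17 IP reads were required, with clusters at the limit of the p-value kept, 190 and 78 of the *Mov10* Deletion clusters stayed enriched against 117 in WT. DEL2 was then below WT and DEL1 above it. The floor of 17 was the fewest IP reads of any enriched WT cluster, so WT could lose none to it. The marker genes of the tissue were present: all 10 neuronal and progenitor genes examined (*Tubb3*, *Dcx*, *Stmn2*, *Map2*, *Snap25*, *Nes*, *Sox11*, *Pax6*, *Fabp7* and *Vim*) had clusters in every library, as did 2 of 8 genes of other tissues, with at most 3 clusters each. Of the latter *Hba-a1*, a hemoglobin gene of red blood cells, had an enriched cluster in WT (3.56, 98 IP reads over 7) and DEL1 (4.17, 83 over 8) and a log2 of 2.89 in DEL2, whereas 1, 8 and 4 of the 10 neuronal and progenitor genes had one. In *Mov10* itself the inferred IP reads numbered 41 in WT and 23 in each *Mov10* Deletion library, over 14, 13 and 19 input reads in the same order, and WT alone had an enriched cluster there.

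Counted as genes, 51 of the 1466 lncRNA genes with a cluster had an enriched one in WT (3.48%, against 16.5% of all genes with a cluster). DEL1 had 207 such genes (14.1%, against 38.6%) and DEL2 had 129 (8.80%, against 30.3%). In *Mov10* Deletion 73 had one in both libraries (4.98%, against 22.8%), and 31 had one in all 3 libraries (2.11%, against 12.8%). WT alone had 8 lncRNA genes that neither *Mov10* Deletion library shared (0.546%, against 0.92%), and 42 were enriched in DEL1 and DEL2 but not in WT (2.86%, against 9.98%). Each lncRNA share was below the share over all genes. With at least 17 IP reads in every library the order turned around for genes as it did for DEL2 clusters: 51 genes were enriched in WT against 28 in both *Mov10* Deletion libraries, and 21 in WT alone against 10 in DEL1 and DEL2 but not WT. This floor was taken from WT, so it could lower only the *Mov10* Deletion counts, for which a gene had to pass in both libraries. At a −log10 p of at least 5 there were 40 genes in WT and 37 in both *Mov10* Deletion libraries. At this threshold 8 were enriched in WT alone and 17 in DEL1 and DEL2 but not WT. Of the 42 genes, 16 had the same cluster enriched in both *Mov10* Deletion libraries. The other 26 had different clusters enriched in each.

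The *Mov10* Deletion libraries share cluster coordinates, so a replicate adds its own enrichment values but no positions of its own. Of 13495 lncRNA clusters with shared coordinates, 647 were enriched in DEL1, 328 in DEL2 and 87 in both, which is 13.4% of the first and 26.5% of the second. Over all clusters with shared coordinates these shares were 13.7% and 22.9%. Of all such clusters, enriched or not, 0.71% were enriched in both. Across the shared lncRNA clusters, Pearson's r of the log2 values was 0.07 (0.04 over all shared clusters). The median difference between the replicates was 1.54 on the log2 scale in both sets. These points share genes and input libraries and are a description, with no p. Clusters with few reads were not left out of r or of the median difference. The median log2 of lncRNA clusters in DEL2 was 1.25, the value of 1 IP read over 1 input read. Most lncRNA clusters enriched in 1 *Mov10* Deletion library were not enriched in the other. The 87 clusters lay in 35 genes, 14 of them in *Rab10os* and 12 in *H19*. WT, whose clusters were called on their own coordinates, had an enriched cluster over 52 of the 87, a cluster of any kind over 61 and none over 26. From the WT side, 65 of the 117 enriched clusters were overlapped by an enriched cluster of DEL1 (55.6%) and 61 by one of DEL2 (52.1%). Over all clusters the shares were 56.4% and 45.3%.

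**Figure D2:**
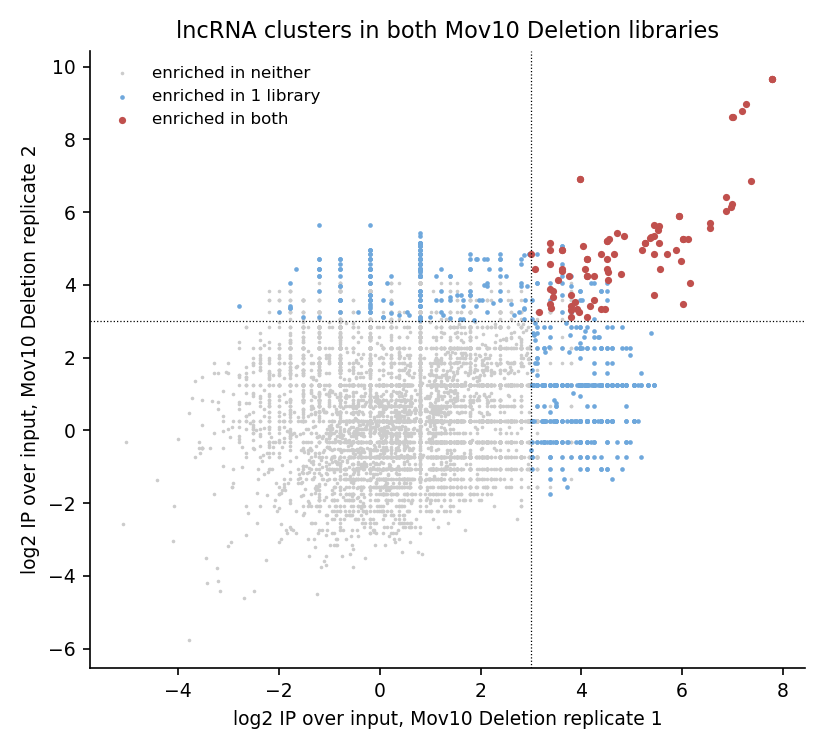
log2 IP over input of 13495 lncRNA clusters with shared coordinates in *Mov10* Deletion replicate 1 (x axis) and replicate 2 (y axis); red points are the 87 clusters enriched in both, blue points those enriched in 1 library, grey points the others, and dotted lines mark a log2 of 3. The blue points spread along both axes, and the red ones reach a log2 of 7.79 and 9.66.

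*H19* (mm10 chromosome 7, 142575530 to 142578146, minus strand) had best log2 values of 8.19, 7.36 and 6.86 in WT and DEL1 and DEL2. Values below are given in this order of libraries. Every cluster in it was enriched, 11 of 11 in WT and 12 of 12 in each *Mov10* Deletion library. They formed 2 blocks. The first lay close to the 3′ end of the gene, at 142575634 to 142575959 in WT and 142575632 to 142575958 in *Mov10* Deletion. Its 7 clusters had log2 values of 4.30 to 8.19 in WT, 5.20 to 7.36 in DEL1 and 4.96 to 6.86 in DEL2. The highest was the cluster at 142575789 to 142575849 in WT, with a log2 of 8.19 at the limit of the p-value. In both *Mov10* Deletion libraries it was the one at 142575766 to 142575849, with a log2 of 7.36 and 6.86. These best clusters overlapped each other. The second block lay on the 3′ side of the *Mir675* hairpin (142577064 to 142577147), from which miR-675 is cut, 24 nt from it in WT and 21 nt in *Mov10* Deletion. It had 4 clusters in WT with a log2 of 6.13 to 6.68, and 5 in *Mov10* Deletion with 6.54 to 6.98 in DEL1 and 5.55 to 6.21 in DEL2. Clusters on the hairpin itself fall outside the rule.

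The chimeric reads on *H19* all fell in the first block. The larger target cluster spanned 142575788 to 142575857 in WT and 142575784 to 142575857 in *Mov10* Deletion. It was assigned to 15 miRNAs in WT and to 13 in each *Mov10* Deletion library, and 11 miRNAs were the same in all 3. miR-130a-3p had the highest deposited score at this place in every library, 702 in WT, 499 in DEL1 and 273 in DEL2. These were also the highest scores of any target cluster in a lncRNA gene. miR-301a-3p, with the same seed, came second at 181, 123 and 40.6. The 2 miRNAs kept their order in all 3 libraries. miR-19b-3p had scores of 37.6, 36.3 and 11.2, miR-148a-3p of 31.0, 31.9 and 14.6, and miR-152-3p of 47.2, 27.7 and 18.6. These are the other families whose seeds match the stretch shown above. miR-199a-5p, for which no match to the whole seed was found, had deposited scores of 53.6, 49.6 and 28.5. The score is not described in the study's text, and it was compared only within a library. The smaller target cluster, next to the larger one, was assigned to miR-130a-3p and miR-301a-3p in all 3 libraries too, with scores of 79.3, 48.2 and 24.6 for miR-130a-3p.

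**Figure D3:**
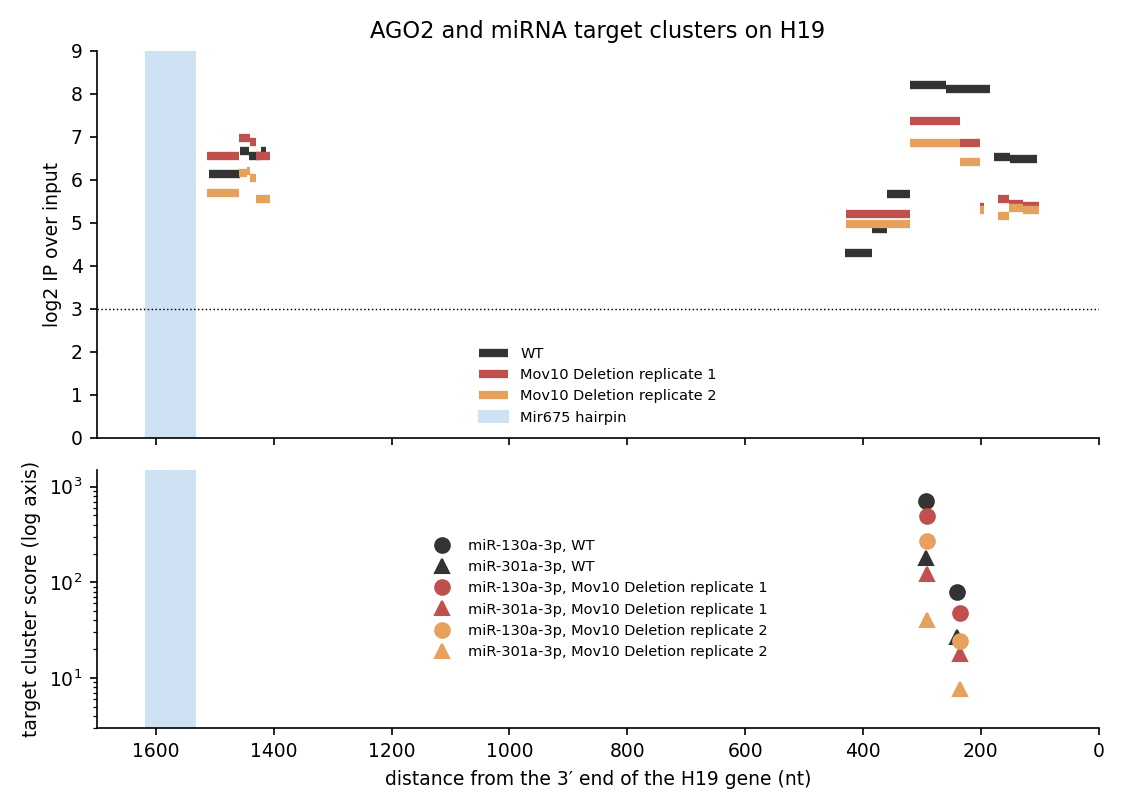
AGO2 clusters (upper panel, bars from start to end, log2 IP over input) and target clusters of miR-130a-3p and miR-301a-3p (lower panel, centre of each cluster, deposited score on a log axis) on *H19*, by distance from the 3′ end of the gene in nt, for the 3 libraries. AGO2 clusters form 2 blocks, the left one next to the *Mir675* hairpin (shaded), and the target clusters lie in the right block, with scores up to 702.

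*Rab10os* (mm10 chromosome 12, 3235791 to 3250374, plus strand) came second. Its enriched clusters numbered 12 of 13 in WT, 15 of 16 in DEL1 and 14 of 16 in DEL2, and they followed each other over 1856, 1641 and 1430 nt. Within this stretch (3239100 to 3240955 in WT) the median log2 of the enriched clusters was 5.36 in WT, 5.53 in DEL1 and 4.78 in DEL2. Their inferred IP reads were 26 to 113, 13 to 80 and 9 to 41. The enrichment was spread along the stretch and did not rest on 1 cluster. All target clusters on *Rab10os* lay on enriched AGO2 clusters, with 6, 3 and 5 assignments. In WT 3 of the 6 were to miR-16-5p, with scores of 9.58, 5.01 and 4.05. The cluster at 3240016 to 3240131 of the *Mov10* Deletion libraries was assigned to miR-103-3p and miR-16-5p in DEL1, with scores of 8 and 6, and to miR-15b-5p, miR-124-3p and miR-195a-5p in DEL2, with 5, 3.13 and 3. No single miRNA was thus assigned to this place in both *Mov10* Deletion libraries, but both had members of the family with the AGCAGCA seed. The lowest score in the deposited lists is 3.

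*H19* and *Rab10os* together held 19.7% of the enriched lncRNA clusters in WT, 4.17% in DEL1 and 7.93% in DEL2. Without them the enriched share was 1.20%, 4.59% and 2.23%. At least 50% of the clusters were enriched in every library in 4 other genes, *1700007F19Rik*, *4933404O12Rik*, *B230208H11Rik* and *Gm11205*. In these genes the count rests on between 2 and 8 clusters a library.

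The next 8 genes by the same ranking had best log2 values of 4.26 to 8.96. In *1700007F19Rik* (chromosome 3) the best clusters were at the same place, 58151574 to 58151578 in WT and 58151574 to 58151581 in *Mov10* Deletion, with a log2 of 4.84, 5.26 and 5.16. Its adjoining clusters had identical values, 34, 22 and 15 IP reads over 1 input read, so they may be the same reads counted again. *B230208H11Rik* (chromosome 10) had a log2 of 6.26, 4.78 and 5.25 near position 12922568, and its clusters there overlap a small RNA gene. *1700086L19Rik* (chromosome 12) had its best cluster close to the 3′ end of the gene, at 74295856 to 74295896 in WT and 74295859 to 74295887 in *Mov10* Deletion, with a log2 of 4.93, 4.71 and 5.42. A target cluster of miR-124-3p covered this place in all 3 libraries, with scores of 45.9, 24.8 and 7.92. This place was thus both enriched and assigned to miR-124-3p in every library.

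*Mir100hg*, the host of miR-100, let-7a-2 and miR-125b-1, had its best clusters at different places in each library, with a log2 of 4.97, 4.89 and 5.34. The place at 41523466 to 41523578 was nevertheless enriched in all 3, with 4.84 in DEL1, 5.34 in DEL2 and 4.56 at 41523518 to 41523580 in WT. In this gene 5 of 180, 29 of 313 and 6 of 312 clusters were enriched. In *2610035D17Rik* and *LOC115487747*, which overlap and share the best clusters, the log2 was 5.22, 4.61 and 4.95, again at 3 different places. Of the 6 clusters of *2610035D17Rik* enriched in both *Mov10* Deletion libraries, those at 113154837 to 113155141 and at 113171239 to 113171358 were overlapped by enriched WT clusters, with log2 values of 3.35 to 4.37 in *Mov10* Deletion. *Gm16701* had 4.51, 4.26 and 4.42. The best clusters of *Gm16701* did not overlap, but those of DEL1 (166985802 to 166985972) and DEL2 (166986190 to 166986324) were each enriched in both *Mov10* Deletion libraries and overlapped by an enriched WT cluster. *4933404O12Rik* (chromosome 5) stood apart. Its clusters around 136933013 had a log2 of 7.26 and 8.96 in DEL1 and DEL2, at the limit of the p-value, but of 4.56 in WT over the same bases. The best *Mov10* Deletion cluster was 3 nt wide.

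**Figure D4:**
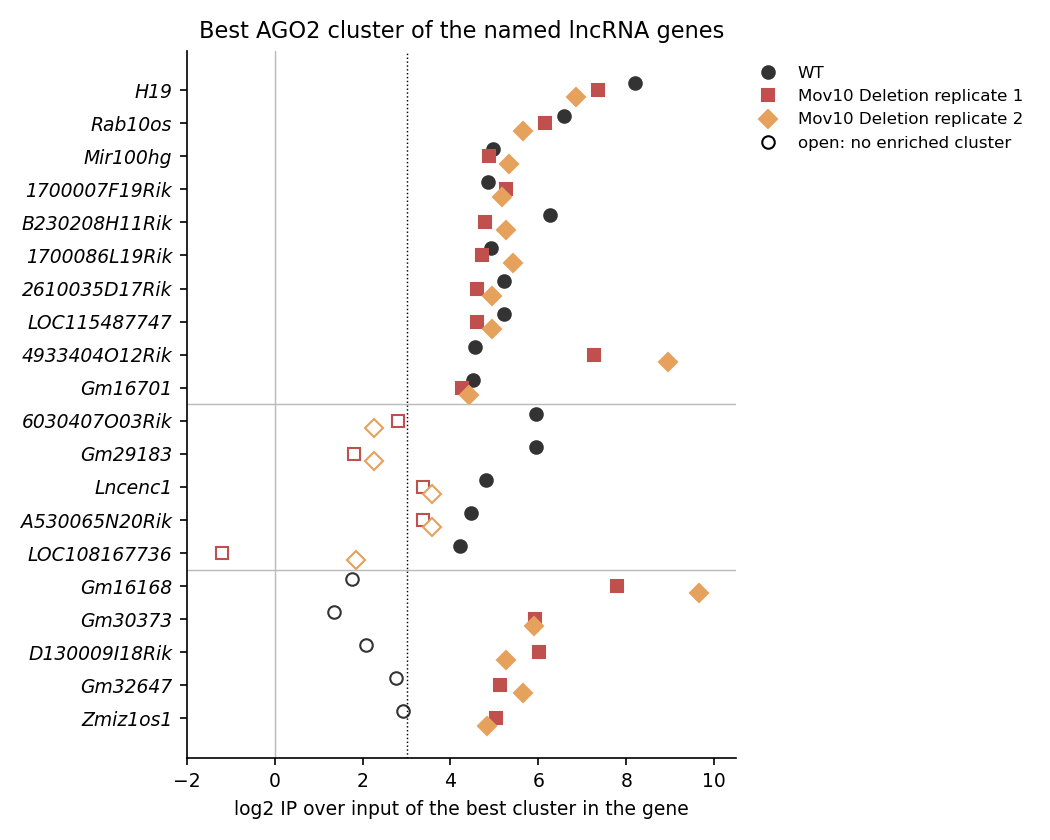
log2 IP over input (x axis) of the best cluster in each named lncRNA gene for WT (circles), *Mov10* Deletion replicate 1 (squares) and replicate 2 (diamonds); filled symbols have an enriched cluster, open ones none, and the dotted line marks a log2 of 3. The upper 10 genes were enriched in all 3 libraries, the next 5 in WT alone and the last 5 in both *Mov10* Deletion libraries alone, with *H19* reaching 8.19 in WT and *Gm16168* reaching 9.66 in *Mov10* Deletion replicate 2.

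The 5 leading genes enriched in WT alone rested on 1 or 2 enriched clusters each. *6030407O03Rik* and *Gm29183* overlap and share the cluster at chromosome 1, 73812256 to 73812287, with a log2 of 5.95 (73 IP reads over 1 input read). Their best *Mov10* Deletion clusters lay elsewhere in the genes and had at most 4 IP reads. *Lncenc1*, a lncRNA known from embryonic stem cells, had a log2 of 4.80 in WT (33 IP reads over 1) and of 3.38 and 3.58 in *Mov10* Deletion, where 6 and 5 IP reads did not reach the p threshold. The *Mov10* Deletion values of *A530065N20Rik* were the same, against 4.46 in WT, each at a different place. *LOC108167736* had 4.22 in WT, −1.20 in DEL1 and 1.84 in DEL2 at an overlapping cluster. The WT value rested on 22 IP reads over 1 input read.

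In the opposite direction, 3 of the 5 leading genes had the same cluster at the top in both *Mov10* Deletion libraries. *Gm16168* (chromosome 17) had a log2 of 7.79 and 9.66 at 10552395 to 10552405, with 127 and 340 IP reads over 1 input read, whereas the best of 4 WT clusters, elsewhere in the gene, had 1.76. *Gm30373* (chromosome 9) had 5.93 and 5.90 at 43955558 to 43955560 against 1.34 for the best WT cluster, elsewhere in the gene. *D130009I18Rik* (chromosome 14) had 6.01 and 5.25 at 104711521 to 104711534 against 2.08 for the best WT cluster, also elsewhere. WT had no cluster over any of these places. The *Mov10* Deletion clusters there are 11, 3 and 14 nt wide, and adjoining clusters had identical values, so they may be the same reads counted again. Of the 87 clusters enriched in both libraries, 27 were under 20 nt wide. In *Gm32647* and *Zmiz1os1* the best *Mov10* Deletion clusters were at different places in the replicates, with 5.12 and 5.65 in the first and 5.05 and 4.84 in the second. The best WT clusters had 2.76 and 2.93, at other places again. With 1 WT library it cannot be told apart whether these differences belong to the genotype or to single brains.

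Known lncRNAs were grouped by role. Unless a place is given, their log2 values are of the best cluster in each library, which can lie at different places. Of 8 measured miRNA host genes 7 had an enriched cluster in some library (2 in WT, 7 in DEL1 and 5 in DEL2). Over all lncRNA genes the figure was 271 of 1466 (18.5%). Genes with more clusters have more chances of an enriched one, and this was not allowed for. *Mir99ahg*, for example, had 287 clusters in DEL1. *Mir9-3hg*, a host of miR-9, was enriched in every library, with a best log2 of 3.28, 4.50 and 3.50. *C130071C03Rik*, another host of miR-9, had 2.61 in WT, which was not enriched, and 3.89 and 3.42 in *Mov10* Deletion. *Mir99ahg*, the host of miR-99a, let-7c and miR-125b-2, had 2.76, 4.38 and 4.95, and *Mir670hg* had 2.08, 4.26 and 4.71. *Mir124a-1hg* and *Mir124-2hg*, hosts of miR-124, were enriched in DEL1 alone (3.21 and 3.83).

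Of 19 snoRNA host genes, whose introns give snoRNAs, 5 had an enriched cluster in some library (18.5% of all lncRNA genes did). There were 0 in WT, 4 in DEL1 and 2 in DEL2. *Zfas1* had 2.66 in WT and 4.26 and 0.67 in *Mov10* Deletion, *Snhg8* had −2.57, 4.71 and 1.25, *Snhg12* had 0.76, 3.26 and 1.99, and *Snhg4* had 1.34, 3.80 and 3.95. Each of these was enriched in a single *Mov10* Deletion library. *Snhg14*, the long imprinted transcript antisense to *Ube3a*, was enriched in both *Mov10* Deletion libraries at 59347595 to 59347611 (4.50 and 5.21). WT had no cluster over this place, and its best value was 3.08 elsewhere in the gene, on 10 IP reads over 1. The *Mov10* Deletion cluster is 17 nt wide. An adjoining cluster had identical values, so they may be the same reads counted again.

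Of the lncRNAs that act on chromatin or on imprinted genes, 6 of 8 had an enriched cluster in some library (18.5% of all lncRNA genes did). *H19* was the only one of them in WT. *Tug1* had 3.54 and 4.13 in *Mov10* Deletion, at the same 5′ cluster (3648555 to 3648688) in both, and a best value of 2.97 in WT, elsewhere in the gene. *Airn*, which silences *Igf2r*, had 2.93, 4.12 and 3.58. *Kcnq1ot1*, which silences its imprinted neighbours, had 2.76, 4.80 and 3.06, and *Ftx* had 2.34, 3.50 and 4.06, each enriched in DEL1 alone. *Xist*, the RNA that coats the inactive X chromosome, differed between the *Mov10* Deletion libraries. Its best log2 was 1.99 in WT, 0.80 in DEL1 and 3.84 in DEL2. In DEL1, 36 of its 37 clusters gave an inferred 36 IP reads in all over 50 input reads, which is the fewest IP reads that could be inferred. In WT 12 of 34 clusters gave 774 IP reads over 474, and in DEL2 20 of 37 gave 480 over 692. The cluster at 103460377 to 103460427 alone had 36 IP reads over 6 in DEL2. *Xist* had 18 target assignments in WT, 0 in DEL1 and 5 in DEL2. In *Ddx3y*, *Eif2s3y*, *Kdm5d* and *Uty*, which lie on the Y chromosome, DEL1 had 433 inferred IP reads in 96 clusters, whereas all 109 clusters of DEL2 and all 6 of WT stood at 1 read over 1. The labels give no sex, and what part this difference has in other results was not tested.

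Among lncRNAs of neural development 7 of 11 had an enriched cluster in some library (18.5% of all lncRNA genes did), 2 in WT, 5 in DEL1 and 6 in DEL2. *Sox2ot*, which overlaps *Sox2*, was enriched in all 3 libraries, with a best log2 of 3.40, 5.19 and 4.71 at different places. *Sox1ot* had 3.66, 3.80 and 4.84 and was not enriched in DEL1, where 8 IP reads did not reach the p threshold. *Rmst*, a partner of SOX2 in neurogenesis, had 2.34 in WT and 4.50 and 4.71 in *Mov10* Deletion. *Pantr1* had 2.56, 4.50 and 4.25 on 7, 13 and 8 IP reads. *Lhx1os* had 2.76, 4.26 and 3.42 on 8, 11 and 9. In both genes the place differed between the libraries. *Dlx6os1*, from the locus of the interneuron genes *Dlx5* and *Dlx6*, was enriched in DEL2 alone (4.25), and *Six3os1* in DEL1 alone (4.61). Apart from *Sox2ot*, none of these genes was enriched in all 3 libraries.

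Of the 7 other well-known lncRNAs 4 had an enriched cluster in some library (18.5% of all lncRNA genes did). *Norad*, a cytoplasmic lncRNA that binds Pumilio proteins, was enriched in all 3 libraries. The cluster at 156391768 to 156391910 (chromosome 2) had a log2 of 3.59 in WT with 513 IP reads over 36, the highest number of IP reads inferred for an enriched lncRNA cluster there. The matching *Mov10* Deletion cluster, 156391769 to 156391907, had 3.91 in DEL1 and 3.34 in DEL2, where 166 IP reads stood over 39. The same place was thus enriched in every library. *Pvt1* had 1.76 in WT and 3.97 and 4.84 in *Mov10* Deletion, and *Dleu2*, the host of miR-15a and miR-16-1, had 2.08, 5.05 and 4.42, on at most 19 IP reads.

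Enrichment was also compared with position in the gene. Clusters in the last 1000 nt of a lncRNA gene were enriched at 5.13% in WT (2.83 to 8.45), against 1.35% elsewhere (1.11 to 1.64). In *Mov10* Deletion the shares were 5.93% against 4.74% in DEL1 and 5.34% against 2.31% in DEL2. Without *H19* they were 2.63% (1.06 to 5.35) against 1.30% in WT, 4.61% against 4.70% in DEL1 and 4.01% (2.47 to 6.12) against 2.27% in DEL2. Without *H19* the interval included the share elsewhere in WT and lay above it in DEL2.

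Target clusters assign a miRNA to a place, and a cluster with several miRNAs counts once for each. lncRNA genes held 291 of 22074 assignments in WT (1.32%), 446 of 30526 in DEL1 (1.46%) and 207 of 13468 in DEL2 (1.54%). The share on an enriched AGO2 cluster was 23.0% in WT (against 20% of all assignments), 12.8% in DEL1 (against 14.7%) and 20.3% in DEL2 (against 14.1%). Without *H19* it was 16.4%, 8.69% and 12.7%, below the share over all assignments in each library.

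miR-124-3p, a miRNA of neurons, led on lncRNAs in every library, with 108 assignments in WT (37.1%, 31.5 to 42.9, against 42.2% of all assignments), 146 in DEL1 (32.7%, 28.4 to 37.3, against 34.8%) and 66 in DEL2 (31.9%, 25.6 to 38.7, against 36.8%). Each interval included the share over all assignments. miR-9-5p, a regulator of neural progenitors, took 7.90%, 5.16% and 5.80%, against 9.14%, 6.71% and 6.88% elsewhere. miR-125b-5p took 4.47%, 4.71% and 4.83%, against 6.16%, 5.57% and 5.52%. Both were lower in lncRNA genes in every library, with the share elsewhere inside each interval. miR-466i-5p took 5.84%, 8.30% (5.91 to 11.3) and 7.73%, and its share outside lncRNA genes was 4.11%, 5.44% and 5.87%. In DEL1 the interval of miR-466i-5p lay above the share elsewhere. let-7c-5p took 3.78%, 3.14% and 3.38%, against 3.52%, 3.32% and 3.06%. let-7b-5p took 4.12% in WT (2.15 to 7.09), against 1.85% elsewhere, but 1.79% against 1.78% in DEL1 and 0.97% against 1.48% in DEL2.

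**Figure D5:**
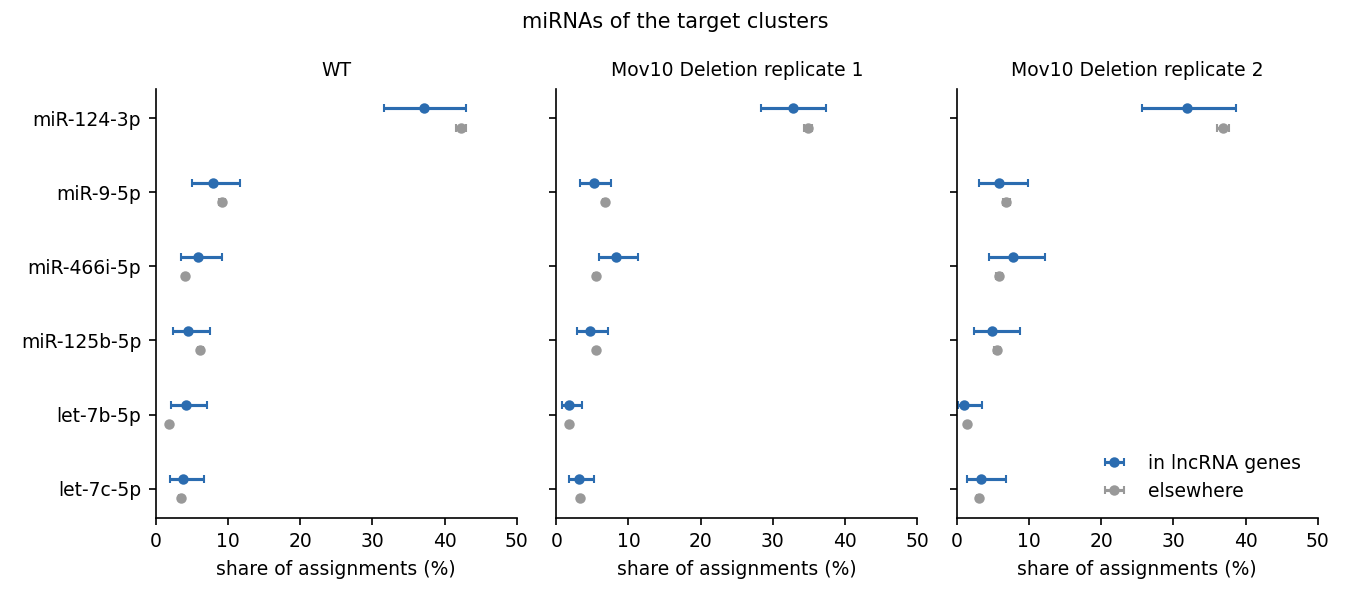
Share of target assignments (x axis, %) of the most frequent miRNAs in lncRNA genes (blue) and elsewhere (grey) in each of the 3 libraries; bars are exact 95% intervals. miR-124-3p leads at 37.1%, 32.7% and 31.9% in lncRNA genes, and most pairs of intervals overlap.

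Assignments that were found in all 3 libraries, with the same miRNA on overlapping clusters, numbered 57 in WT, or 19.6% of its lncRNA assignments, and lay in 31 genes. Over all assignments 14.7% were found in all 3. Outside *H19* the number was 38 in 30 genes (14.2%), and 27 of the 38 were miR-124-3p. The genes named from here on as examples of these were in part chosen after their values were seen. On *Norad*, and on *Gm14170* which overlaps it, miR-124-3p had scores of 85.5, 25.6 and 14.9 on the cluster that was enriched in all 3 libraries. On *AI504432* it had 64.6, 33.3 and 19.7, where the AGO2 cluster was not enriched, and on *C130071C03Rik*, near the 3′ end of this miR-9 host, 29.9, 18.9 and 14.7. On *Kcnq1ot1* the scores were 25.1, 21.5 and 8.44. *1500009C09Rik*, *1300002E11Rik* and *Gm26691* also carried a miR-124-3p cluster on an enriched AGO2 cluster in every library. *Chaserr*, an upstream neighbour and repressor of *Chd2*, and *Kantr* were among the genes where the AGO2 cluster was not enriched.

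Other miRNAs were found again on few lncRNAs. On *Mir124a-1hg* miR-153-3p was assigned to 2 adjoining clusters in every library, 64590952 to 64590990 and 64590991 to 64591047 in WT, with its highest score 67.5 in WT, 79.3 in DEL1 and 9.69 in DEL2. The AGO2 cluster at this place had a log2 of 1.25 in WT (87 IP reads over 31), below the threshold. Of 12 annotated *Mir124a-1hg* transcripts 1 held CTATGCA, the match to the miR-153-3p seed, at the distance of the first of these clusters from the 3′ end, where 0.265% of 1508 lncRNA transcripts of that length hold it. No transcript held it at the distance of the second. The source used held no sequence for miR-124-3p (27 of the 38 assignments outside *H19*) or miR-466i-5p (2), so these were not searched. In all, 7 pairs of a gene outside *H19* and a miRNA found in all 3 libraries had a miRNA sequence and a transcript to search. Of these 3 had a seed match in some transcript and 1, this one, at the distance of the cluster. Such a match counted only inside the last exon, at the distance of the cluster from the 3′ end of the gene. The clusters of *Snhg14* (665985 nt or more away), *2610035D17Rik* (80935 nt) and *Gm15564* (14945 nt) could therefore hardly be matched, and their lack of a match decides nothing. The miRNA and this window (Mir124a-1hg-201, GRCm39 chr14:64828416-64828445, plus strand) are shown with the seed and its match in capitals.
miR-153-3p: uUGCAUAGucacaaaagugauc
Mir124a-1hg: gaaacacggatCTATGCAagcgggggggtg
On *Bc1*, a short dendritic RNA of rodent neurons, miR-9-5p had scores of 27.6, 29.3 and 16.3. ACCAAAG, the match to the miR-9-5p seed, was not in its transcript.

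Summed over the libraries, *Snhg14* had the most target assignments, 29 in WT, 28 in DEL1 and 13 in DEL2. The place at 59978597 to 59978755 carried miR-124-3p, with scores of 58.8, 57.0 and 11.8, and miR-139-5p, with 34.6 in WT and 26.6 in DEL1. Elsewhere in the gene, at 59975311 to 59975459, miR-431-5p had 11.7 in WT and 7.74 in DEL1. Both assignments were found in DEL2 too, and the first place lay on an enriched AGO2 cluster in *Mov10* Deletion but not in WT. That AGO2 cluster (59978550 to 59978725) had a log2 of 3.15 in DEL1 and 3.25 in DEL2, close to the threshold of 3. WT had a cluster over this place too, which was not enriched. The place lies within 10 kb downstream of a protein-coding gene on the same strand. The seed matches of miR-139-5p and miR-431-5p were in 0 of 21 *Snhg14* transcripts. Whether these spliced transcripts hold the bases of the clusters was not checked. *H19* followed with 23, 20 and 18 assignments on only 2 clusters, and was first in DEL2. *5730522E02Rik* had 8, 16 and 8, *Gm20754* had 9, 13 and 6, and *Rmst* had 13, 9 and 2. In *5730522E02Rik* miR-124-3p at 26169410 to 26169506 of WT was found in all 3 libraries, and in *Gm20754* it was miR-466i-5p at 73490393 to 73490474 of WT, with scores of 5, 6.95 and 5.82. In *Rmst* no assignment was found in all 3.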

How the data were processed

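Chimeric AGO2 eCLIP was performed by the authors on 1 WT and 2 *Mov10* Deletion P0 brains. Per the submitters' processing notes, UMI-tools 1.1.1, cutadapt 3.2, STAR 2.7.7a and Bowtie 1.2.3 were used with mm10, and per the study's methods clusters were called with CLIPper. For each AGO2 cluster the authors deposited a log2 value of IP over input with a −log10 p-value. For each target cluster the authors deposited a miRNA name and a score that the sources used here do not describe. Read depth per library is not given in the sources used here.

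Clusters were placed with bedtools 2.31.1 and Python 3.11.15 (pandas 2.3.3, numpy 2.4.6, scipy 1.17.1, matplotlib 3.10.9). Of 12731 lncRNA genes, 9533 took their strand from mm10 transcripts, 1848 from GENCODE vM39, and 1350 had none and hold no member. Protein-coding and miRNA genes with no known strand counted for both strands. IP and input reads were inferred by matching each deposited ratio and p-value to whole reads (exact binomial test under 5 reads, otherwise a chi-square test with up to 400 input reads), which was tested on simulated data. They were found for 92.3% to 97.4% of enriched lncRNA clusters.

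The members, gene lists and thresholds were chosen with earlier results of these data known. Named genes were the 10 enriched in all 3 libraries with the highest lowest value, the 5 highest for WT alone and for both *Mov10* Deletion libraries alone, the 5 with most target assignments, and each gene of 5 lists of known lncRNAs with an enriched cluster. For miRNAs these were the 5 most frequent in each library. Alternatives changed the thresholds, the placing of clusters and the libraries used.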

Additional observations from a re-analysis of the deposited data

How the results depend on the processing

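Of 122 recomputed values 94 stayed within 1.5 times the reported count, or within its interval for a share, and 28 moved. Some of the 94 could not move. The WT gene count was fixed when a *Mov10* Deletion library was left out, and the WT counts were fixed under the floor of 17 IP reads. The order of the genotypes turned around with at least 17 IP reads, for genes and for DEL2 clusters. At a −log10 p of at least 5 it did so only for the count of genes (40 in WT against 37). For the 37 a gene had to pass in both *Mov10* Deletion libraries. At this threshold 93 clusters were enriched in WT against 236 in DEL1 and 150 in DEL2. Genes enriched in WT alone numbered 8, against 17 in DEL1 and DEL2 but not WT. The floor of 17 IP reads was taken from WT and could lower only the *Mov10* Deletion counts. At a log2 of at least 2, 189 WT clusters were enriched. At a log2 of at least 4, 65, 331 and 216 clusters in WT and DEL1 and DEL2 were, in 28 genes in WT, 45 in both *Mov10* Deletion libraries and 13 in all 3. At a −log10 p of at least 5, 236 and 150 clusters were enriched in DEL1 and DEL2, in 37 genes in both, 20 in all 3 libraries and 17 in the *Mov10* Deletion libraries but not WT. With at least 17 IP reads these numbers were 190 and 78 clusters and 28, 18 and 10 genes, and 21 genes were enriched in WT and neither *Mov10* Deletion library, against 8. With a target score of at least 5, 103, 145 and 61 target clusters remained by number, and miR-124-3p took 47.2% in WT. In clusters with a single miRNA it took 46.6% in WT. Leaving out either *Mov10* Deletion library gave 129 to 207 genes for *Mov10* Deletion, 95 to 167 for *Mov10* Deletion and not WT, 11 to 17 for WT alone and 34 to 40 for both genotypes. Analyses without *H19* and *Rab10os*, or with mm10 strands only, were added after seeing the data and moved no count by over 1.5 times. No paired analysis was possible because the groups share only replicate number 1 and WT has 1 library. With 1 WT library a genotype difference cannot be told apart from one between single brains.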
